A study of Mus musculus with 4 samples.

Results

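The regions described here are stretches of open chromatin whose centre lies in a short interspersed nuclear element (SINE), a class of short repeats, in neurospheres of the newborn mouse hippocampus. They are the 291 regions on chromosomes 1 to 19 and X, of 29121 in the deposited table, for which the peak annotation names a repeat of the class SINE. Accessibility was measured with ATAC-seq, in which the transposase Tn5 cuts and tags open DNA. The Fgf13cko group was 2 cultures from male mice with the genotype hGFAPCre+, Fgf13 flox/y. The control group was 2 cultures of the genotype hGFAPCre+, Fgf13+/y, so every culture carried the Cre transgene. All mice were C57BL/6 at P0, and neurospheres, floating clusters of neural progenitor cells, were harvested on day 7 of culture in medium holding FGF-2 and EGF (both 20 ng/ml). The human GFAP promoter drives Cre in radial glia and their progeny, so the deletion was conditional, and its efficiency in these cultures was not analysed here. The product of Fgf13 stays inside the cell, where it binds microtubules and voltage-gated sodium channels.

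SINEs are copies of small RNAs transcribed by RNA polymerase III, which spread with the reverse transcriptase of LINE elements. Their families differ in age. MIR elements, and the Deu (AmnSINE) and LFSINE elements, spread long before rodents arose and are shared with other mammals or with more distant vertebrates. B1 elements (listed in the Alu family, whose human members derive from the same 7SL RNA), B2, B4 and ID elements are found in rodents, and B2 copies can carry binding sites of the boundary factor CTCF. Most SINE copies are silenced by DNA and histone methylation, and some old copies have become part of enhancers.

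No genome was used here, so the repeats themselves could not be read. Sequence close to them was at hand where a start window of a RefSeq gene (250 bases before to 50 after its start, GRCm38.p6, the assembly that mm10 names) overlapped a region. This held for 8 windows, of which 3 lay within 100 bp of the region's centre. These 3 are shown because they are the DNA nearest to a repeat behind the values below. Both windows at MIR regions belong to regions that rose in Fgf13cko (a taurine transporter region and a region whose nearest gene is Sec61b), and the window at an AmnSINE1 region belongs to one that did not pass (log2 fold change 0.04, adjusted p = 0.936). All are starts of long non-coding RNA genes, printed in the direction of the gene, and capitals mark matches to the motifs named in the next paragraph.

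Gm30628, chr6:91679643-91679942, minus strand, 52 bp from the centre of the MIR region near Slc6a6: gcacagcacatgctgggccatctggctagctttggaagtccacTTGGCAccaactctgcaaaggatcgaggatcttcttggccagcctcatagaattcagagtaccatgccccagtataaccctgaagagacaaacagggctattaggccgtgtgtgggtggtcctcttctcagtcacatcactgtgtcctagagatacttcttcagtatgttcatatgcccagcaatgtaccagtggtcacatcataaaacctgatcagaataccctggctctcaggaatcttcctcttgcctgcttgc
Gm32544, chr4:47638828-47639127, minus strand, 14 bp from the centre of the MIR3 region near Sec61b: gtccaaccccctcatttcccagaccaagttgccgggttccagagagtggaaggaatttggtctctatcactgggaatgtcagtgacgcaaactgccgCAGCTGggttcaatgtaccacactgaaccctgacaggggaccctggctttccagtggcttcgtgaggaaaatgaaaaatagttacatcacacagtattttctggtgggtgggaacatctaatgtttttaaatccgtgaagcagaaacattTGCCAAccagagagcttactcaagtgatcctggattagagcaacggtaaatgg
Gm41053, chr13:107923161-107923460, plus strand, 27 bp from the centre of the AmnSINE1 region near Zswim6: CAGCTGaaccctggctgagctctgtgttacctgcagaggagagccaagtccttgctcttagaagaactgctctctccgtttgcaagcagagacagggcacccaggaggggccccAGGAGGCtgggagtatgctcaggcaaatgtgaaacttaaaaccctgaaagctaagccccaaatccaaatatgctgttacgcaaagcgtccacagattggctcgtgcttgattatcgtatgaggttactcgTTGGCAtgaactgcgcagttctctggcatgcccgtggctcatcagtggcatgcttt

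On both strands these windows were searched for the core of the polymerase III B box (GTTCGA), AP-1 (TGANTCA), a CTCF core (AGGNGGC), an E box (CAGCTG), an NFI site (TTGGCA) and a Sox site (ACAATG). Each of the 3 windows held an NFI site, which 14.1% of 32817 start windows of that length hold. An E box, present in 16.3% of start windows, was in the windows of Gm32544 and Gm41053, and the CTCF core, present in 29.3%, was in that of Gm41053. The letters of the B box core (2.54% of start windows), AP-1 (7.81%) and Sox (12.6%) were not in these 3 windows. A match is a run of letters and not a binding site, and whether these windows reach into the repeat was not determined.

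Among the 291 regions, 96 were MIR, 68 Alu, 61 B4, 36 B2, 13 Deu, 11 ID and 6 of the family listed as tRNA, all 6 of them LFSINE_Vert. The most frequent elements were MIRb with 37 regions, MIR with 28, MIR3 with 22 and the B4 element B4A with 21. Of the B2 family, 17 regions were B3 and 9 were B2_Mm2. Introns held 150 regions and intergenic DNA 141. The annotation gives each region a single detailed label, so regions labelled start site, exon or gene end do not enter this group. Some members still lay close to a start, such as an Alu region 0.27 kb from that of Pcbd2. The median distance to the nearest start site was 29.7 kb, close to the 31.0 kb of all intronic and intergenic regions. MIR regions had a median distance of 35.4 kb and Alu regions 24.1 kb. The 291 regions had 285 different nearest genes, and 5 genes were nearest to more than 1 of them.

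SINE regions were wider than distal regions without repeat, and the centres of many lay outside the authors' peaks in at least 1 list. This is given as a description with no test. Every centre was inside a peak of at least 1 list. The median width of SINE regions was 842 bp, against 830 bp over all regions. It was 738 bp over 15058 intronic and intergenic regions without an annotated repeat or CpG island, which are the comparison used throughout. The B4 and Alu regions were the widest families at medians of 997 and 954 bp, against 793 bp for MIR. In the authors' peak lists, every SINE region overlapped a peak in all 4 lists. The centre, where the repeat lies, was inside a peak of all 4 lists in 59.8% of SINE regions, against 78.9% of the distal regions without repeat. This share was 64.6% for MIR, 55.6% for B2, 54.1% for B4, and for Alu it was 34 of 68. By library, the centres of SINE regions were inside a peak in 93.1% and 86.6% of cases in Fgf13cko 1 and 2, and in 68.7% and 75.6% in control 1 and 2. The distal regions without repeat had 96.7% and 96.0% in Fgf13cko and 84.7% and 89.8% in controls. The lists differed in size, with 64954 and 54373 peaks in Fgf13cko and 38006 and 47148 in controls. These shares are therefore read within a list only. The authors' highest fold enrichment per region, which is not compared between lists, had a median over SINE regions between 4.44 and 4.86 in the 4 lists.

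In each library the SINE regions held 20553 and 22172 tags in Fgf13cko, and 19912 and 22010 tags in controls. As a share of the tags in all regions on these chromosomes, this was 0.806% and 0.845% in Fgf13cko, against 0.717% and 0.679% in controls, so the groups did not overlap. The distal regions without repeat did not overlap either, with 38.2% and 42.6% in Fgf13cko against 35.8% and 35.2% in controls. LINE regions did not overlap (0.581% and 0.676% against 0.561% and 0.534%), and LTR regions did (1.11% and 1.36% against 1.12% and 1.06%). Most of the SINE difference lay in the MIR regions, with 0.293% and 0.310% in Fgf13cko against 0.217% and 0.209% in controls. The Alu regions had 0.215% and 0.210% in Fgf13cko against 0.216% and 0.194% in controls, which overlapped. Library totals were 16.8 and 13.1 M tags in Fgf13cko and 24.9 and 26.0 M in controls. The mitochondrial share of tags moved with the group, at 9.54% and 9.19% in Fgf13cko and 23.4% and 27.0% in controls. With the mitochondrial regions left out before scaling, 33 SINE regions rose and 6 fell, beside the 37 and 6 given next. Cells of 1 mouse were plated into 2 wells per the labels, which do not state whether replicates are mice or wells. The p-values therefore measure a spread between libraries that may be technical.

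More SINE regions rose than fell in Fgf13cko. Of 288 tested regions, 37 rose (12.8%) and 6 fell (2.08%) at an adjusted p under 0.05 in edgeR's quasi-likelihood test, fitted on all regions. Together that is 43 regions, 14.9% of those tested, against 7.84% of all regions. The background over all 28801 tested regions was 6.20% risen and 1.64% fallen, and the distal regions without repeat had 9.61% and 2.18%. LINE regions had 24 of 281 risen (8.54%) and LTR regions 53 of 601 (8.82%). The median log2 fold change was 0.21 over SINE regions, 0.12 over LINE, 0.09 over LTR, 0.10 over distal regions without repeat and 0.00 over all tested regions. Both Fgf13cko libraries lay above both controls in 121 SINE regions (42.0%, background 28.5%) and below both in 60 (20.8%, background 25.2%). The distal regions without repeat had 35.5% above and 21.6% below. The count of risen regions followed which library was left out. It was 4 without control replicate 1 (1.4% of SINE regions, against 1.44% of all regions) and 3 without control replicate 2 (1.05% against 0.667%). It was 70 without Fgf13cko replicate 1 (24.2% against 14.3%) and 71 without Fgf13cko replicate 2 (24.7% against 17.7%). The share of SINE regions that rose was thus no higher than that of all regions without control replicate 1. With either control left out, it was also no higher than that of distal regions without repeat. With scaling by library size only it was 59.0%, against 61.3% of all regions. Calls of fallen regions also followed the library left out, over SINE regions as over all regions. Without control replicate 1 and 2, the SINE median log2 fold change was 0.23 and 0.18, against 0.02 and 0.00 over all regions. Without Fgf13cko replicate 1 and 2 it was 0.26 and 0.11, against -0.01 and -0.02. The DESeq2 Wald test called 22 risen (7.64%, against 6.54% of distal regions without repeat and 4.15% of all regions) and 3 fallen. The count of fallen SINE regions was 10 with the replicate number as a block, where 703 of all regions fell, against 472 in the main fit. Some start-site regions of cell type genes also moved between the groups. Of 17 neuronal start-site regions 3 rose and 0 fell (median log2 fold change 0.24, 11 higher), of 8 GABAergic 1 rose and 0 fell (median 0.32, 6 higher), of 9 astrocyte 0 rose and 2 fell (median 0.04), and of 6 oligodendrocyte 0 rose and 1 fell (median 0.07). Among 17 stem cell start-site regions 0 rose and 0 fell (median -0.01), and among 14 neurogenic 1 rose and 0 fell (median 0.11). The microglial, endothelial and meningeal lists, with 1, 3 and 3 such regions, had 0 rises and 0 falls. The share called over start-site regions alone was not computed. The part of cell type genes in the SINE counts was not tested.

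**Figure D1:**
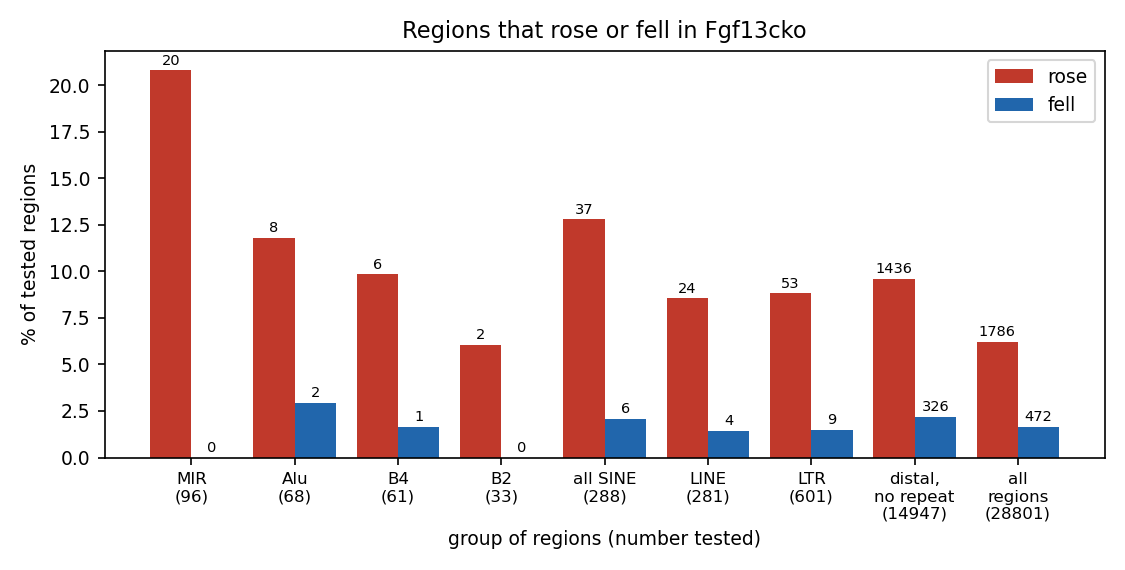
Percentage of tested regions that rose (red) or fell (blue) in Fgf13cko at an edgeR adjusted p under 0.05, by group of regions, with the number called above each bar and the number tested below. MIR regions had 20.8% risen, against 9.61% of distal regions without repeat and 6.20% of all regions.

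The families differed in their counts. Of 96 MIR regions 20 rose (20.8%), of 68 Alu regions 8 (11.8%), of 61 B4 regions 6 (9.84%) and of 33 tested B2 regions 2 (6.06%). The falls were 2 Alu regions, 1 B4, 1 ID and 2 of the tRNA family, with 0 of 96 MIR regions in edgeR (4 at an unadjusted p under 0.05) and 0 in DESeq2. Some MIR regions did fall in the fits without an Fgf13cko replicate, which leave 1 library in that group. Without Fgf13cko replicate 1 and 2, the MIR median log2 fold change was 0.47 and 0.35, against 0.19 and -0.04 over distal regions without repeat. Median log2 fold changes were 0.39 for MIR, 0.29 for B4, 0.02 for B2, 0.01 for Alu, 0.04 for Deu, -0.03 for ID and -0.22 for the 6 tRNA regions. The difference between families was not tested, since members of a family are not replicates. In each library, the median log2 ratio to the control mean was 0.35 and 0.47 for MIR in Fgf13cko 1 and 2, and 0.00 and 0.07 for Alu. The distal regions without repeat had -0.03 and 0.22. The libraries of a group also differed among themselves: the median absolute log2 difference over SINE regions was 0.38 between the Fgf13cko libraries and 0.23 between the controls.

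**Figure D2:**
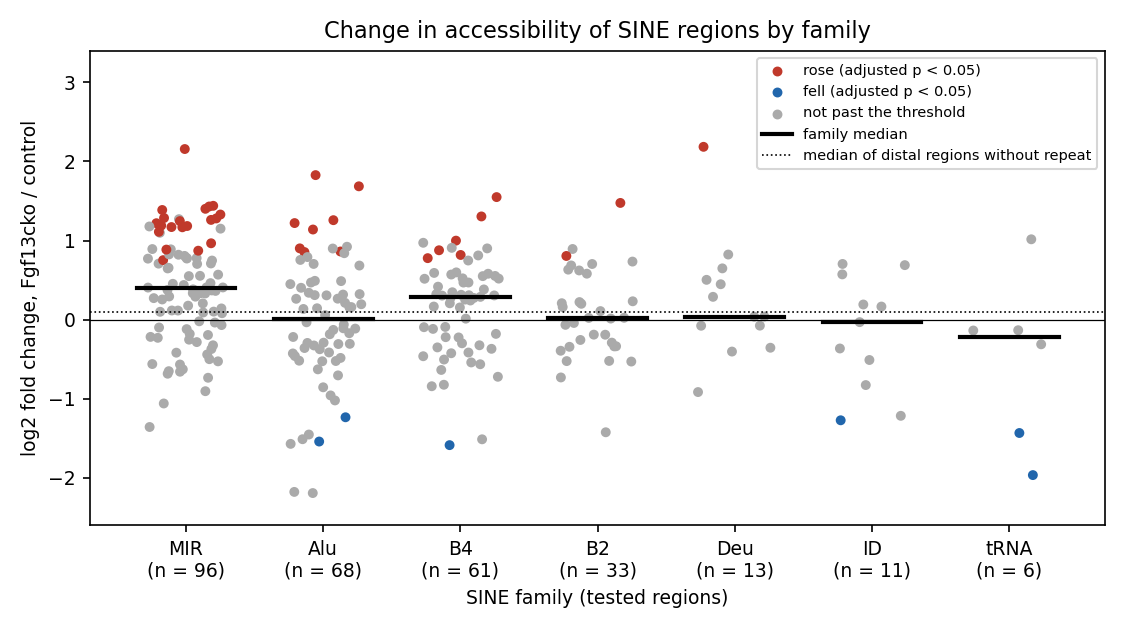
Log2 fold change (Fgf13cko over control, vertical axis) of each tested SINE region by family, with red points risen, blue points fallen, grey points not past the threshold, black bars the family median and a dotted line the median of distal regions without repeat (0.10). The MIR median (0.39) lies above that line, and the 20 called MIR points are all red.

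Within the MIR family, all 4 elements had risen regions, but 11 of the 20 belonged to the element MIR. Of its 28 regions 39.3% rose, against 9.61% of distal regions without repeat, and the median log2 fold change was 0.81. Regions of this element had a median width of 1009 bp, against 657 bp for MIRb. Their median tag counts, scaled for library size, were 56.3 and 49.9 in controls, against 46.0 and 41.0 for MIRb. Of distal regions without repeat, 18.8% of those wider than 1000 bp rose, and 20.6% in a fit requiring a mean of at least 50 tags. The part of width and tag count was not tested. MIR3 had 4 of 22 risen (18.2%, median 0.35), MIRb 4 of 37 (10.8%, median 0.14) and MIRc 1 of 9 (11.1%, median 0.75). The 20 risen regions had log2 fold changes from 0.75 to 2.16 and mean normalised counts (tags scaled for TMM effective library size) from 72.0 to 600 in Fgf13cko, against 24.0 to 324 in controls. Of these 20, 11 were intronic and 9 intergenic, with 19 different nearest genes and a median distance of 48.1 kb to the start site. Without control replicate 1 the count of risen MIR regions was 1, without control replicate 2 it was 0 (17 at an unadjusted p under 0.05), without Fgf13cko replicate 1 and 2 it was 35 and 34, and in DESeq2 it was 12. In the same 5 settings 2.40%, 1.10%, 21.9%, 21.1% and 6.54% of distal regions without repeat rose, against 1.04%, 0.0%, 36.5%, 35.4% and 12.5% of MIR regions.

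Slc6a6, the gene of a taurine transporter, was nearest to 2 MIR regions, and both rose. The region 4.48 kb upstream of its start (chromosome 6, 91679174 to 91680008), whose neighbouring sequence is the Gm30628 window above, held normalised counts of 150 and 185 in Fgf13cko and 59.2 and 65.1 in controls. Both Fgf13cko libraries lay far above the controls, at means of 167 ± 25.1 and 62.2 ± 4.13 (SD, 2 libraries each). The log2 fold change was 1.43 with an SE of 0.21 (adjusted p = 0.00723). The intronic region 35.9 kb into the gene held 137 and 110 in Fgf13cko and 74.4 and 52.4 in controls (0.97, adjusted p = 0.0493). Of the other 6 tested regions nearest to Slc6a6, its start site had a log2 fold change of 0.51 (adjusted p = 0.306), and none passed the threshold. The region near Sec61b, beside the Gm32544 window, had 82.5 and 82.7 in Fgf13cko and 43.1 and 30.0 in controls (1.17, adjusted p = 0.0367). Neither the intronic Slc6a6 region nor the Sec61b region passed in DESeq2 (adjusted p = 0.128 and 0.12) or without either control.

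Other MIR regions rose in introns and in intergenic DNA. The intronic region nearest to Mir6237, a microRNA gene 375 kb away (chromosome 9, 10269014 to 10269876), held 253 and 213 in Fgf13cko and 94.0 and 91.3 in controls (1.33, SE 0.19, adjusted p = 0.00653). The control values lay close together, and both Fgf13cko values were above them. In an intronic region nearest to Tmem178, counts were 360 and 323 in Fgf13cko and 141 and 161 in controls (1.17, SE 0.19, adjusted p = 0.00930). The region nearest to Dglucy, the gene of D-glutamate cyclase, had 73.3 and 106 in Fgf13cko and 33.8 and 33.0 in controls (1.44, adjusted p = 0.0188). The MIR region with the highest mean count was the MIRb region in an intron near AI646519, with 680 and 520 in Fgf13cko and 329 and 319 in controls (0.89, adjusted p = 0.0366). The adjusted p of the AI646519 region no longer passed with the replicate number as a block, and those of the MIR regions near Slc6a6, Mir6237, Tmem178, Dglucy and AI646519 no longer passed without either control.

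The largest rise of all SINE regions was nearest to Egfr, the gene of the EGF receptor, and the next largest was nearest to Sec61g on the same chromosome. The AmnSINE2 region 82.1 kb upstream of Egfr (Deu family, chromosome 11, 16669701 to 16670543) held 88.2 and 114 in Fgf13cko and 19.6 and 24.5 in controls. Both controls were low and both Fgf13cko libraries several times higher, at means of 101 ± 18.1 and 22.1 ± 3.49 (2 libraries each). The log2 fold change was 2.19 with an SE of 0.29 (adjusted p = 0.00497). A MIR3 region 134 kb further from Egfr, nearest to Sec61g, a subunit gene of the protein channel of the endoplasmic reticulum, had 91.1 and 122 in Fgf13cko and 32.8 and 15.2 in controls (2.16, SE 0.36, adjusted p = 0.0108). The controls of the Sec61g region lay far apart, and it did not pass without control replicate 2. Of the regions outside repeats at this locus, one in intron 1 of Egfr rose (249 and 245 in Fgf13cko, 87.6 and 83.3 in controls, 1.53, adjusted p = 0.00423), as did one 120 kb from Sec61g (257 and 221 in Fgf13cko, 80.3 and 82.8 in controls, 1.55, adjusted p = 0.00445), and both did not pass without control replicate 2. The start-site regions of Egfr (0.08, adjusted p = 0.871) and Sec61g (-0.14, adjusted p = 0.698) did not pass.

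In the Alu family, the risen regions carried several B1-related elements. The B1_Mur2 region 18.3 kb upstream of Parp16, the gene of an ADP-ribosyltransferase of the endoplasmic reticulum, held 272 and 192 in Fgf13cko and 70.5 and 60.0 in controls (1.83, SE 0.23, adjusted p = 0.00478; chromosome 9, 65195819 to 65196958). The intronic PB1D10 region 56.4 kb from the start of Sh3gl2, which encodes the synaptic endocytosis protein endophilin A1, had 202 and 178 in Fgf13cko and 56.8 and 60.9 in controls (1.69, SE 0.20, adjusted p = 0.00423). In both regions each Fgf13cko library was well above each control. The start-site regions of Parp16 (-0.35, adjusted p = 0.357) and Sh3gl2 (0.07, adjusted p = 0.932) did not pass. Of the other tested regions over 1 kb from a start site, 1 of 2 nearest to Parp16 rose (1.97, adjusted p = 0.0108) and 0 of 4 nearest to Sh3gl2. Without control replicate 2 the Parp16 region did not pass.

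Against these, the Alu region with the highest mean count of the family fell. It is a B1_Mm region 25.7 kb from Ly6c2, a surface protein gene of monocytes (chromosome 15, 75085518 to 75087040), with 293 and 390 in Fgf13cko and 948 and 662 in controls. The groups did not overlap, though each differed within itself (341 ± 68.7 in Fgf13cko, 805 ± 202 in controls). The log2 fold change was -1.23 with an SE of 0.25 (adjusted p = 0.0211). The call ended with a loess offset on abundance, with library size as the only scaling and without either control. The other Alu fall was a B1_Mus1 region near E030030I06Rik (16.6 and 19.5 in Fgf13cko, 58.8 and 44.4 in controls, -1.54, adjusted p = 0.0452), given here because it is the other fall of the family, and it did not pass without either control. Reads from such young elements can match many copies, and how the authors treated those reads is not given in the sources used here.

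In the B4 and B2 families 9.84% and 6.06% of tested regions rose, near the 9.61% of distal regions without repeat and the 6.20% of all regions. The RSINE1 region near Sipa1l2, a gene for a regulator of Rap GTPases, held 348 and 278 in Fgf13cko and 83.7 and 129 in controls (1.55, SE 0.24, adjusted p = 0.00862; chromosome 8, 125389257 to 125390843). The B4 region with the highest mean count, an ID_B1 region near Smpdl3a, a phosphodiesterase gene, had 279 and 274 in Fgf13cko and 158 and 143 in controls (0.88, adjusted p = 0.0217). Replicates of the Smpdl3a region lay close together in both groups. A B4A region near AA536875 fell, with 13.8 and 21.1 in Fgf13cko and 54.8 and 50.3 in controls (-1.59, adjusted p = 0.0403), and did not pass in DESeq2. Of the B2 family, the B3A region near Tbc1d1, a Rab regulator gene of glucose transport, had 147 and 111 in Fgf13cko and 47.0 and 45.6 in controls (1.48, adjusted p = 0.00889), and a B3 region near Ifitm6 was the other rise (307 and 278 in Fgf13cko, 174 and 160 in controls, 0.81, adjusted p = 0.0309). The Smpdl3a, Tbc1d1, Ifitm6 and AA536875 regions did not pass without either control, nor the Sipa1l2 region without control replicate 1. Of the other tested regions over 1 kb from a start site, 4 of 9 nearest to Sipa1l2 and 2 of 4 nearest to Tbc1d1 rose. Nearest to Smpdl3a 0 of 1 rose, and nearest to AA536875 1 of 4 rose and 1 fell. The 8 tested B2_Mm2 regions had log2 fold changes from -0.73 to 0.21. The 3 SINE regions below the count filter were all B2, with 0 to 10.0 raw tags per library although the authors' lists had a peak at each with a fold enrichment of 2.87 to 7.16.

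The tRNA family had few members. Of its 6 LFSINE_Vert regions 2 fell, those nearest to Nr4a1 and to Gphn, the gene of the inhibitory synapse scaffold gephyrin. The Gphn region, 235 kb upstream, had 23.5 and 43.7 in Fgf13cko and 80.8 and 102 in controls (-1.43, SE 0.33, adjusted p = 0.0343). The Gphn fall did not pass with library size as the only scaling or without either control.

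Immediate early genes, which are switched on within minutes of a stimulus, had 2 of these regions. At Nr4a1, which encodes an orphan nuclear receptor, the LFSINE_Vert region 6.42 kb upstream (chromosome 15, 101260026 to 101260832) held 29.2 and 21.6 in Fgf13cko and 73.9 and 123 in controls. Both Fgf13cko libraries were low and the controls differed from each other (25.4 ± 5.38 in Fgf13cko, 98.7 ± 35.0 in controls). The log2 fold change was -1.96 with an SE of 0.34 (adjusted p = 0.0121), and it did not pass without control replicate 2. The Nr4a1 start site had -0.37 (adjusted p = 0.292). At Fos, which encodes a subunit of AP-1, the RSINE1 region 50.4 kb downstream of the start went the other way, with 130 and 116 in Fgf13cko and 46.5 and 52.4 in controls (1.31, SE 0.22, adjusted p = 0.0104), a call that ended without either control. Of the 5 other tested regions nearest to Fos, 2 fell (-1.16 at 1.64 kb, adjusted p = 0.0200, and -0.91 at 12.2 kb, adjusted p = 0.0212), and the start site had -0.52 (adjusted p = 0.182). Neither of these falls passed without either control.

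**Figure D3:**
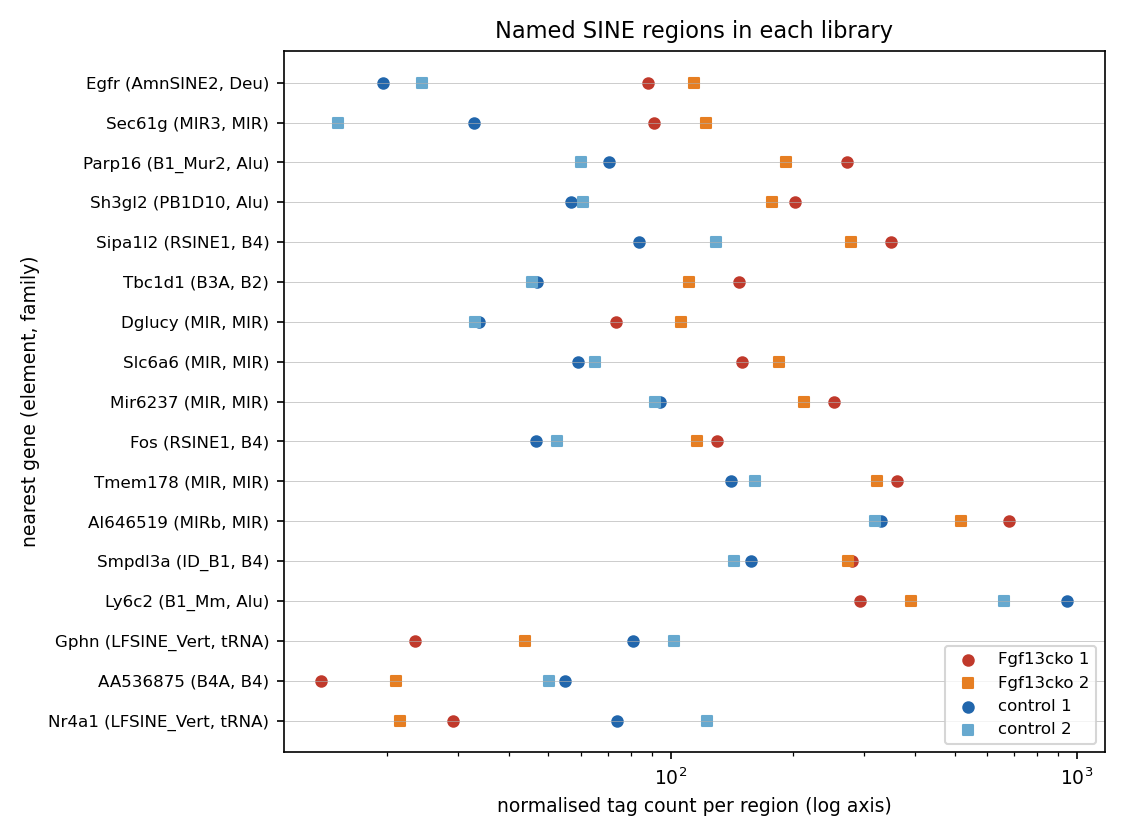
Normalised tag count (log axis) of the SINE regions named in the text by rule that rose or fell, in Fgf13cko 1 and 2 (red and orange) and control 1 and 2 (dark and light blue), sorted by fold change from the Egfr region at the top to the Nr4a1 region at the bottom. In every region shown both Fgf13cko points lie on 1 side of both control points, which the naming rule required of most of them.

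The share of risen regions moved with the width of the region. Each region is a merged peak, so its width comes from the same data and is not independent of the groups compared. Over SINE regions, the authors' overlapping peaks had median total widths of 675 and 601 bp in Fgf13cko, against 414 and 511 bp in controls. Over distal regions without repeat these were 607 and 585 bp against 417 and 488 bp. Among distal regions without repeat, 7.09% of those no wider than 1000 bp rose, against 18.8% of the wider ones. SINE regions no wider than 1000 bp had 16 of 176 risen (9.09%), and the wider ones 21 of 112 (18.8%). Of the narrow regions, 13 of 67 MIR regions rose (19.4%), with 1 of 36 Alu, 1 of 31 B4 and 0 of 19 B2 regions in edgeR (0 in DESeq2, and 2 B2 regions at an unadjusted p under 0.05). Of the wide regions, 7 of 29 MIR (24.1%), 7 of 32 Alu (21.9%), 5 of 30 B4 (16.7%) and 2 of 14 B2 (14.3%) rose. The part of width in the count of risen Alu and B4 regions was not tested. Distance from the start site went with smaller differences: 13.1% of SINE regions rose within 10 kb, 12.8% at 10 to 100 kb and 12.5% beyond 100 kb, against 7.55%, 9.85% and 10.9% of the distal regions without repeat.

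**Figure D4:**
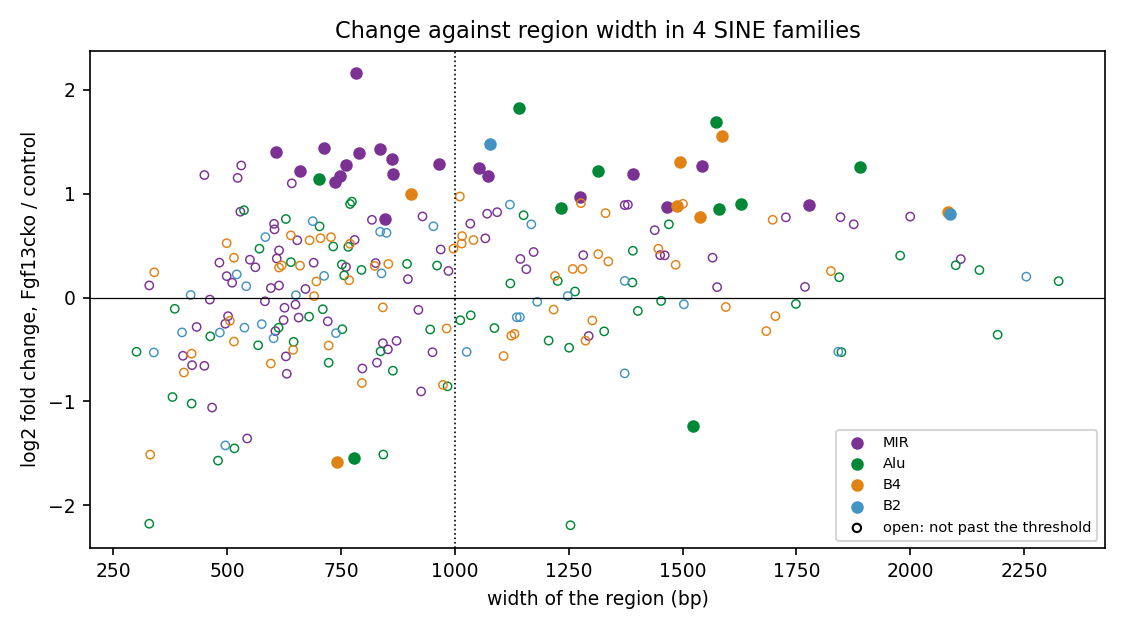
Log2 fold change (Fgf13cko over control) against the width of the region in bp for the MIR, Alu, B4 and B2 families, with filled points past the threshold, open points not past it and a dotted line at 1000 bp. Left of the line, 13 MIR points are filled and high, with 1 each for Alu and B4.

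Few SINE regions lay next to known cell type genes. Of 11 gene lists other than the SINE regulators, 7 had no SINE region nearest to a member: the neurogenic, neuronal, GABAergic, oligodendrocyte, microglial, endothelial and meningeal lists. The stem cell list had 1, a MIR3 region 105 kb upstream of the glial glutamate transporter gene Slc1a3, with 88.8 and 98.0 in Fgf13cko and 91.6 and 82.8 in controls (0.10, adjusted p = 0.824). The astrocyte list had 1, a MIRb region 149 kb upstream of the transcription factor gene Nfia, with 14.9 and 53.2 in Fgf13cko and 35.7 and 33.4 in controls (-0.02, adjusted p = 0.988). The Nfia value rested on single libraries: it was -1.21 (adjusted p = 0.0269) without Fgf13cko replicate 2 and 0.58 without Fgf13cko replicate 1. Both sets of values overlapped between the groups. Of the other tested regions over 1 kb from a start site, 1 of 8 nearest to Slc1a3 rose, and of 15 nearest to Nfia 3 rose and 1 fell. The list of FGF and MAPK feedback genes had the Egfr region, and the stress list those of Fos and Nr4a1. As a check of the labelled cell type, 16 of 18 stem cell genes had a tested region within 1 kb of the start site. So did 13 of 13 neurogenic, 11 of 15 neuronal, 8 of 12 GABAergic, 9 of 13 astrocyte, 6 of 10 oligodendrocyte, 3 of 8 endothelial, 3 of 8 meningeal and 1 of 7 microglial genes. Open start sites therefore did not single out stem cells from other neural types.

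Genes that transcribe, bind or silence SINEs were read at their start sites. Of 36 tested start-site regions, at 35 of 44 listed genes, 2 rose and 0 fell in edgeR (3 were lower at an unadjusted p under 0.05), and 1 rose and 0 fell in DESeq2, with a median log2 fold change of -0.05. Over all regions 6.20% rose and 1.64% fell. These are not the shares of start-site regions, since 1616 of the 1786 risen regions were intronic or intergenic. The share over start-site regions alone was not computed. A start-site region of Cbx5, the gene of the heterochromatin protein HP1 alpha, rose (the other had 0.15, adjusted p = 0.721), with 218 and 192 in Fgf13cko and 102 and 97.2 in controls (log2 fold change 1.04, SE 0.19, adjusted p = 0.0137). Uhrf1, whose product directs the methyltransferase Dnmt1 to newly copied DNA, had 185 and 166 in Fgf13cko and 95.5 and 106 in controls (0.80, adjusted p = 0.0366). In both, each Fgf13cko value was above each control value, neither passed without either control, and Uhrf1 did not pass in DESeq2 (adjusted p = 0.115). Gtf3c6, a subunit gene of the polymerase III factor TFIIIC, had 255 and 224 in Fgf13cko and 138 and 153 in controls (0.71, adjusted p = 0.0510). Mbd1, a gene of a methyl-CpG binding protein, had 155 and 156 in Fgf13cko and 234 and 246 in controls (-0.62, adjusted p = 0.0679).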

How the data were processed

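Chromatin accessibility was measured in 2 Fgf13cko and 2 control cultures, with groups and replicate numbers from the sample titles. The authors deposited estimated counts, which per the file headers are raw tag counts from HOMER for each merged broad peak on mm10, not normalised and given in steps of 0.5 tags. They also deposited 1 peak list per sample, in which the score, the fold enrichment over background (a ratio), the -log10 p and the -log10 q are the authors' own values. Of these the fold enrichment was used, within a list only. HOMER, MACS2, Bowtie2, Picard and DESeq2 are named, per the submitters' processing notes. How read shifting, duplicates and multi-mapping reads were handled: not given in the sources used here. HOMER takes a region's annotation from its centre.

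Counts were rounded to whole numbers and fitted over all regions with edgeR 4.0.16 in R 4.3.3 (TMM, filterByExpr, robust glmQLFit, glmQLFTest, two-sided, Benjamini-Hochberg, threshold 0.05). SE is the absolute log2 fold change divided by the root of F. On simulated data with 28801 regions, 200 of them changed 4-fold, 92.5% of the changed regions were recovered. Alternatives included DESeq2 1.42.0 and limma 3.58.1 loess offsets. The members and lists were chosen with earlier results of these data known. Named regions were the 8 largest rises and falls past the threshold whose groups did not overlap (5 falls qualified), the 3 risen and 1 fallen with the smallest p and the highest mean count per family of 50 or more regions, and up to 3 per gene list, without predicted genes. Up to 4 start-site regions of SINE regulators were named. Other regions were named after their values were seen: the second Slc6a6 region, the regions of Sec61b, E030030I06Rik and Ifitm6, and regions outside repeats at the named genes. GRCm38.p6 start windows came from RefSeq. A few regions that met this rule are not reported here.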

Additional observations from a re-analysis of the deposited data

How the results depend on the processing

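With 2 cultures a group, every count depended on single libraries. Leaving out 1 library gave 3 to 71 risen and 0 to 43 fallen SINE regions (0 without control replicate 2, with 10 at an unadjusted p under 0.05), 1 to 14 risen Alu, 0 to 5 B2, 0 to 14 B4 and 0 to 35 MIR regions. The fewest came without a control and the most without an Fgf13cko library, over SINE regions as over all regions, and the cause was not tested. In DESeq2, 22 rose and 3 fell (4 Alu, 3 B4 and 12 MIR risen). With scaling by library size only, the median of all regions moved to 0.97 and that of SINE regions to 1.18, with 170 risen, 1 fallen, 38 Alu, 16 B2, 41 B4 and 62 MIR risen, and the share of SINE regions that rose (59.0%) was below that of all regions (61.3%). Members no wider than 1000 bp had 16 risen (1 Alu, 0 B2, 1 B4, 13 MIR) (9.09% of SINE and 19.4% of MIR regions, beside 12.8% and 20.8% at any width), and the part of width was not tested. Without chromosome 7, 1 B2 region rose. The same-numbered libraries deviated with a correlation of -0.237 over regions, so the numbers were not taken as pairs. The replicate block gave 38 risen (13.2%, against 7.31% of all regions) and 10 fallen SINE regions. A crossed replicate block, added after seeing the data, gave 47 risen (16.3%, against 9.35% of all regions) and 12 fallen. Over all regions 703 and 1124 fell in these settings, against 472 in the main fit. Lower filters, rounding down, a loess offset and leaving out mitochondrial regions kept each count within 1.5 times, as did a minimum mean of 50 tags. The SINE median lay between 0.11 and 0.30 in every setting but library size only. Of the named regions, the Nfia region, near 0, changed sign with library size only (0.99), the loess offset (0.01) and without Fgf13cko replicate 1 (0.58) or control replicate 1 (0.00) and was -1.21 without Fgf13cko replicate 2, and the Slc1a3 region with the loess offset (-0.03). The Slc1a3 region passed with library size only (1.07, adjusted p = 0.0044).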
